A study of Homo sapiens with 6 samples.

Results

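Cytosolic ribosomal protein genes encode the protein part of the ribosome that translates nuclear messages. Genes of the table were taken by symbol, as RPL or RPS followed by a number with at most a final A or X, together with RPLP0, RPLP1, RPLP2 and RPSA, where the symbol had a single locus on an autosome or on chromosome X. The rule gave 76 members, 30 of the small and 46 of the large subunit, of 23145 genes kept in the table. They lie on 21 chromosomes, with 12 on chromosome 19. FAU and GNB2L1 (RACK1), which also encode ribosomal proteins, carry other symbols and are described apart.

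Messenger RNA was sequenced from 6 cultures of the human ovarian cancer lines A2780 and OVCAR3, 1 library per culture, to ask which genes differ with the level of COL11A1, which encodes a chain of type XI collagen. The COL11A1-low group held A2780 carrying a scrambled shRNA, A2780-shCOL11A1, in which an shRNA targets COL11A1, and OVCAR3-GFP. The COL11A1-high group held A2780CIS, a cisplatin-resistant derivative selected by long exposure to the drug and labelled as high in its own COL11A1, and A2780-COL11A1 and OVCAR3-COL11A1, into which the gene was introduced. No other treatment is labelled, and the labels do not say whether any culture is a single clone. In A2780 both low cultures carry an shRNA and neither high culture is labelled with one, so construct and COL11A1 cannot be told apart there. Each culture was sequenced once, and A2780-COL11A1 and OVCAR3-COL11A1 carry the same label of overexpression in different lines, so every p-value below measures the spread between cultures that differ in construct or line.

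A ribosome holds a single copy of nearly every ribosomal protein, and cells make the proteins in matched amounts and degrade those left unassembled. Messages for these proteins are among the most abundant of growing cells, and in vertebrates they begin with a C followed by a run of pyrimidines, the terminal oligopyrimidine (TOP) tract, through which mTORC1 and LARP1 control their translation. Their transcription follows growth signals and MYC in many tissues, and free RPL5 and RPL11 bind MDM2 and so link faulty ribosome assembly to p53.

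COL11A1 stood at 4.23 FPKM with the scrambled shRNA and 0.670 with the targeting one, at 297 in A2780CIS and 8.17 in A2780-COL11A1, and in OVCAR3 at 0.0258 with GFP and 1.67 with COL11A1. FPKM is a fragment count scaled by transcript length and by the size of the library, so levels of different genes can be compared. Steps between the lowest values put the relative depth between 0.747 and 1.58 in the other A2780 libraries, with A2780 scrambled shRNA at 1, and at 1.14 for OVCAR3-GFP and 0.50 for OVCAR3-COL11A1, the shallowest library. Of 10 genes that mark ovarian cancer cells, all 10 were above 1 FPKM in OVCAR3, while 6 to 8 were under 1 FPKM in each A2780 library, PAX8, WT1 and KRT7 among them. Of 10 fibroblast, immune and endothelial markers, all were under 1 FPKM in OVCAR3; in A2780, COL3A1 reached 75.7 to 548 FPKM and the next highest value was 3.68, of CD68 in A2780CIS.

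Starts of the members are shown first, since the tract they share is not part of the rule. Of the 76 members, 62 have an entry in the RefSeq promoter table (GRCh38.p14), and in 46 of these, 74.2%, a listed start is a C followed on the gene's strand by at least 4 further C or T. The same holds for 5.14% of the 27305 genes in the table, for 8.96% of 67 mitochondrial ribosomal protein genes and for 83.3% of 12 translation factor genes known for such messages. The tract was 5 to 19 bases long with a median of 8. In the windows of 30 bases below, 20 bases precede the start and 10 follow it, and capitals mark the tract within the window. The first pair are the members that passed the test as higher in OVCAR3 than in A2780, then come 5 members among the lowest in OVCAR3 or in OVCAR3-COL11A1, then RPS12, the member lowest in A2780CIS relative to the other A2780 cultures, and last the abundant RPS27 beside its paralog RPS27L. RPL13 has further listed starts, which are not shown.
RPS16 (chr19:39435940-39435969, minus strand): ccagggtggcccctagctttCCTTTTCCgg
RPS9 (chr19:54200838-54200867, plus strand): cagccgtggcgcttccgcgcCTCTTTCTCa
RPL13 (chr16:89560662-89560691, plus strand): gtgcattgcggggccgcttcCTTTCCgctc
RPL13A (chr19:49487588-49487617, plus strand): ccctgcgacaaaacctcctcCTTTTCCaag
RPL7A (chr9:133348198-133348227, plus strand): attacccacaattccctttcCTTTCTCTCT
RPL28 (chr19:55385912-55385941, plus strand): tcgcctcgcccctcgccttcCTCTTTCCgt
RPS29 (chr14:49598701-49598730, minus strand): ttttcccccgagcgcgcagctggcagcggt
RPS12 (chr6:132814549-132814578, plus strand): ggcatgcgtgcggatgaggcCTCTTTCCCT
RPS27 (chr1:153990742-153990771, plus strand): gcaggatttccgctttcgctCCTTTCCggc
RPS27L (chr15:63157468-63157497, minus strand): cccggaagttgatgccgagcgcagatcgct
RPS29 and the paralog RPS27L have no tract at the listed start, which says only that the start shown does not open with one. The window of RPS29 holds a run of T and C further up, before the start.

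Members took more of the summed FPKM in A2780 than in OVCAR3. Their share was 26.6% in A2780 scrambled shRNA, 25.6% in A2780-shCOL11A1, 29.4% in A2780CIS and 26.7% in A2780-COL11A1, against 21.2% in OVCAR3 with GFP and 15.0% with COL11A1. The A2780 libraries lay within 4 percentage points of each other, and both OVCAR3 libraries lay below all of them. The median member was at 1617, 1480, 1928 and 1670 FPKM in the A2780 libraries in that order, at 1067 in OVCAR3-GFP and at 673 in OVCAR3-COL11A1. In bulk RNA, fewer cells with a high level and less RNA per cell cannot be told apart. The 76 mitochondrial ribosomal protein genes together took 0.741% to 1.05% of the sum, with the highest share in OVCAR3-COL11A1, where the cytosolic share was lowest.

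**Figure D1:**
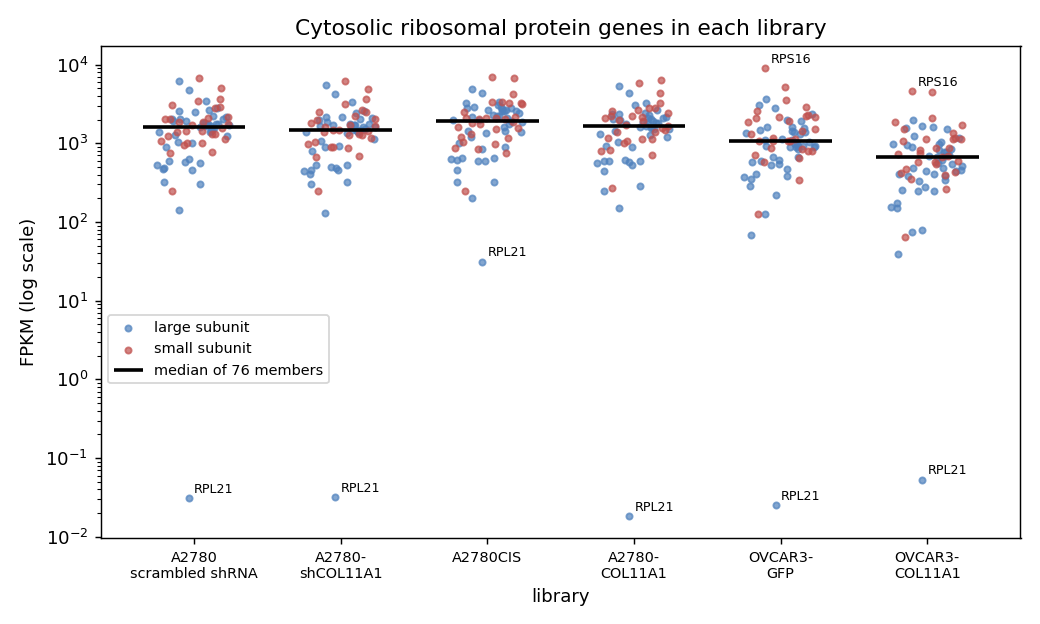
FPKM of the 76 members (log axis) in each of the 6 libraries, with 1 point per member in red for the small and blue for the large subunit and a bar at the median. The median falls between 1480 and 1928 in the A2780 libraries, against 1067 and 673 in OVCAR3; RPS16 leads in OVCAR3, and RPL21 is near 0 in all but A2780CIS.

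The members span a wide range of levels. The highest mean over the 6 libraries belonged to RPS27 at 5223 FPKM, followed by RPL41 at 4568, RPS18 at 4428, RPLP1 at 3712 and RPS2 at 3691. RPL41 encodes the shortest ribosomal protein, and RPLP1 an acidic protein of the stalk that recruits elongation factors. The lowest means were those of RPL21 at 5.26 FPKM, RPL27A at 138, RPS23 at 199, RPL13 at 218 and RPL22 at 354. GENCODE 29 names 1124 pseudogenes after members, with at least 1 for 75 of the 76, and how reads shared with such copies were assigned is not given in the sources used here. Levels of single members are therefore uncertain. The loci of 15 members also overlap another gene's entry, and those of 28 hold small RNA genes.

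RPL21, a large subunit protein, had the lowest levels and the largest jump. It was at 0.0308, 0.0317, 31.4 and 0.0184 FPKM in the A2780 libraries and 0.0255 and 0.0530 in OVCAR3. Its locus (chromosome 13, 27825692 to 27830702, GRCh37) overlaps the entry of RPL21P28, and 66 pseudogenes carry its name. RPL21 passed the filter on low values only through A2780CIS, so a difference there was a condition of its being tested.

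The order of levels among members was close within a line. Across 75 members without RPL21, Pearson's r of log2(FPKM + 1) was 0.996 between A2780 scrambled shRNA and A2780-shCOL11A1, 0.982 between the scrambled library and A2780-COL11A1, and 0.940 between it and A2780CIS. It was 0.971 between the OVCAR3 libraries and 0.799 between A2780 scrambled shRNA and OVCAR3-GFP. These values are across genes, which are not independent, and all libraries share the genes' lengths and copies. The highest member was RPS27 in 3 of the A2780 libraries, RPS18 in A2780-COL11A1 and RPS16 in both OVCAR3 libraries, where RPS16 alone made 8.62% and 7.19% of the members' sum.

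The series' main question sets the 3 COL11A1-high against the 3 COL11A1-low libraries, with the line as a term. No member passed an adjusted p of 0.05 in limma, against a background of 0% of 12841 genes tested, which were those with a mean of at least 1 FPKM; 0 members and 6.48% of all genes had an unadjusted p under 0.05. The smallest adjusted p among members was 0.731. Differences are on the scale log2(FPKM + 1) throughout, with standard errors. The median over members was -0.11, with 59 of 76 negative, beside -0.01 over all genes. Without either OVCAR3 library the median was 0.19, so the sign of this median rests on the OVCAR3 pair.

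RPS28 and RPS12, of the small subunit head and beak, had the lowest differences at -0.57 ± 0.29 (adjusted p = 0.731) and -0.48 ± 0.38 (adjusted p = 0.734). RPS28 was at 3105, 2518, 2078 and 2584 FPKM in the A2780 libraries and 1071 and 474 in OVCAR3; the high libraries are A2780CIS, A2780-COL11A1 and OVCAR3-COL11A1. In A2780 the high libraries at 2078 and 2584 FPKM fell on both sides of A2780-shCOL11A1 at 2518, so the groups overlap within that line. RPL41 followed at -0.43 ± 0.30 (adjusted p = 0.731) and RPS4X, the small subunit gene on chromosome X, at -0.38 ± 0.29 (adjusted p = 0.734). Apart from RPL21, the highest were RPS20 at 0.22 ± 0.32 (adjusted p = 0.840), RPS3A at 0.17 ± 0.36 (adjusted p = 0.894) and RPL9 at 0.16 ± 0.32 (adjusted p = 0.884), which were also the highest in A2780CIS, itself 1 of the high libraries. Whether the group difference varies between the lines was tested by the interaction of group and line. Again no member and 0% of genes passed in limma, while 32 members and 13.6% of genes had an unadjusted p under 0.05. The interaction was negative, that is lower in OVCAR3, for 75 of 76 members with a median of -0.90, beside 0.11 over all genes.

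OVCAR3-COL11A1 against OVCAR3-GFP compares 1 library with 1, with no test and no replicate check. Of 76 members 53 were at least 1.5-fold lower and 0 at least 1.5-fold higher, against a background of 32.3% of genes past that ratio, 18.7% higher and 13.6% lower. The median was -0.75 over members and 0.05 over all genes, and 75 members were negative; only RPL21, near 0 in both libraries, was positive. The medians were -0.74 for 30 small and -0.77 for 46 large subunit genes. The members' median was negative under all 4 other scalings. Scaling each library to the same summed FPKM moved the median of all genes to 0.24 and that of the members to -0.54, and after quantile normalization the members' median was -0.23. With the first, 32 members were past 1.5-fold, all lower, against 40% of all genes, 30% higher and 9.95% lower. With the second, 20 members were, 2 higher and 18 lower, which is 26.3% of members against 32% of all genes, 15.4% higher and 16.6% lower. OVCAR3-COL11A1 also has the lowest summed FPKM of the 6 libraries, 423289 against 490430 in OVCAR3-GFP, and the lowest relative depth, 0.50 against 1.14. Markers of the line were lower in the same library: of 9 tested ovarian cancer markers 8 were negative and 6 at least 1.5-fold lower, with a median of -0.73, and the 10 in the list summed to 2979 FPKM in OVCAR3-GFP and 1670 in OVCAR3-COL11A1. The part of sum, depth or markers in the result was not tested.

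RPL13A had the lowest ratio at -1.47, from 221 FPKM in OVCAR3-GFP to 79.4 in OVCAR3-COL11A1. RPL13A is known also for a role outside the ribosome, in silencing inflammatory messages. RPL7A was at 1399 against 538 FPKM (-1.38), RPS29 at 2870 against 1139 (-1.33), RPL28 at 375 against 155 (-1.27) and RPL31, which lines the exit of the peptide tunnel, at 1032 against 440 (-1.23). Of these 5, RPL13A and RPL28 lie on chromosome 19 and the others on chromosomes 9, 14 and 2. RPS29 has no tract at the start shown, and 16 of the 62 members in the promoter table have none at a listed start. At the other end RPS9, an early-assembling small subunit protein, was at 1889 and 1870 FPKM (-0.01), RPL22 at 478 and 410 (-0.22) and RPS2 at 5206 and 4459 (-0.22).

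By position in the ribosome the differences in the OVCAR3 pair were spread over both particles. Of 11 genes listed for the small subunit head and beak, 10 were at least 1.5-fold lower, with a median of -0.88. Among them RPS3 was at 2107 against 1073 FPKM, RPS18 at 2319 against 1175 and RPS16 at 8956 against 4554. RPS20, at 1062 against 809 (-0.39), was the exception among the 11. The list omits the beak gene RPS27A, which was at 802 against 601 FPKM (-0.42) and not past the ratio either. Of 8 genes whose products line the exit tunnel 6 were past the ratio (median -0.96). In the stalk RPLP0, RPLP1 and RPLP2 were at -0.87, -0.76 and -0.78, all past the ratio, and RPL12 at 2004 against 1611 FPKM (-0.31) was not past the ratio. The 5S particle genes RPL5 (934 against 695 FPKM) and RPL11 (936 against 700) differed by -0.43 and -0.42 and neither was past it. Of 18 genes mutated in Diamond-Blackfan anaemia, an inherited failure of red cell production, 18 were negative and 11 at least 1.5-fold lower. Members with a tract at the start had a median of -0.78 (46 genes), those without one -0.69 (16 genes) and those not in the promoter table -0.72 (14 genes).

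**Figure D2:**
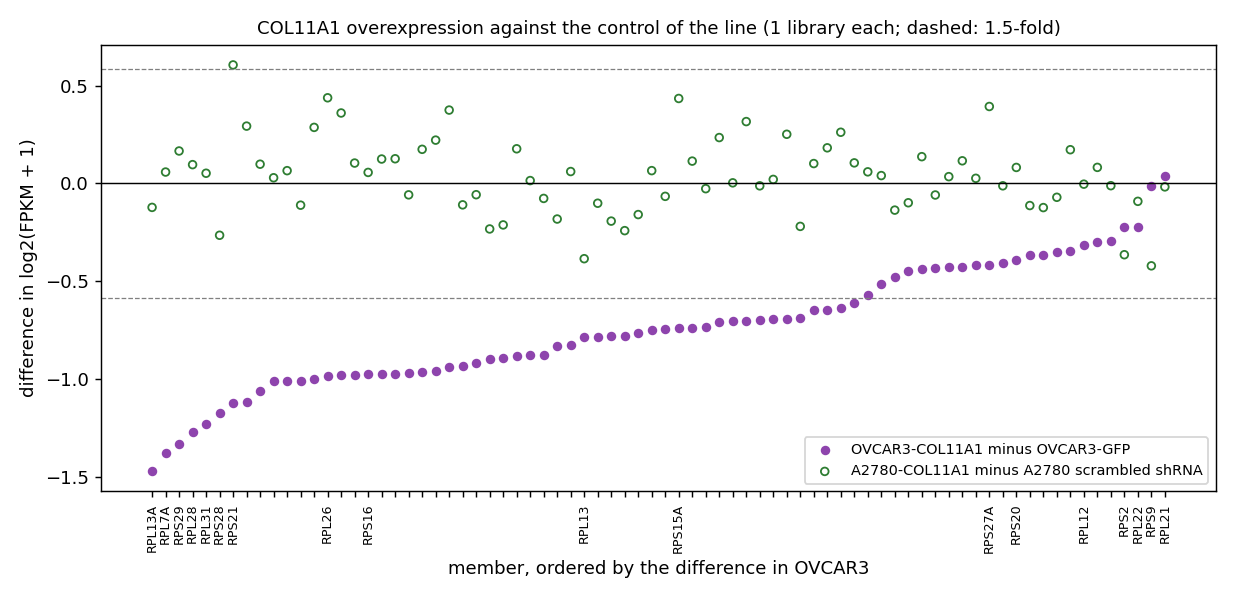
Difference in log2(FPKM + 1) for each member between OVCAR3-COL11A1 and OVCAR3-GFP (filled) and between A2780-COL11A1 and A2780 scrambled shRNA (open), with 1 library on each side; dashed lines mark 1.5-fold and some members are named on the axis. In OVCAR3, 75 of 76 points lie below 0 with a median of -0.75, while in A2780 they scatter about 0.04.

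Other genes of the translation machinery were set beside the members. In the OVCAR3 pair 9 of 18 translation factors with TOP messages were at least 1.5-fold lower and 0 higher (median -0.57). The elongation factor EEF1A1 was at 1731 FPKM against 849 and EEF2, which moves the ribosome along, at 670 against 366, while EIF3E and EIF3H, subunits of an initiation factor, were at 288 against 340 and 270 against 292. Of ribosomal protein genes under other symbols, GNB2L1 was at -1.10 and FAU at -0.62. Ribosome biogenesis factors had a median of 0.11 (3 of 32 at least 1.5-fold higher and 1 lower), with the rRNA methyltransferase gene FBL at 990 against 522 FPKM as the lower one and the assembly factor RPF2 at 32.5 against 73.8 as the highest.

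RNA polymerase I genes, which serve ribosomal RNA, had a median of 0.20, with 4 of 14 at least 1.5-fold higher and 0 lower; by the same ratio the mitochondrial ribosomal proteins had 0.13, with 9 higher and 8 lower of 76; and the mTORC1 list had -0.08, with 4 each way of 23. Of 12 host genes of small nucleolar RNAs, 10 were negative and 4 at least 1.5-fold lower, and GAS5 was at 184 against 87.9 FPKM. This list holds RPSAP58, which is a pseudogene of RPSA. MYC was at 30.4 against 42.5 FPKM. Because members are short and abundant, classes of other genes by length and level are given beside them. The classes are not matched to the members, whose median was 1067 FPKM in OVCAR3-GFP and 673 in OVCAR3-COL11A1. The part of length and level in the result was not tested. The members' median transcript is 682 bases; 2747 other tested genes with transcripts under 1000 bases had a median of -0.02 in the pair, 635 with a mean of at least 100 FPKM had -0.25, and 287 with both had -0.27.

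**Figure D3:**
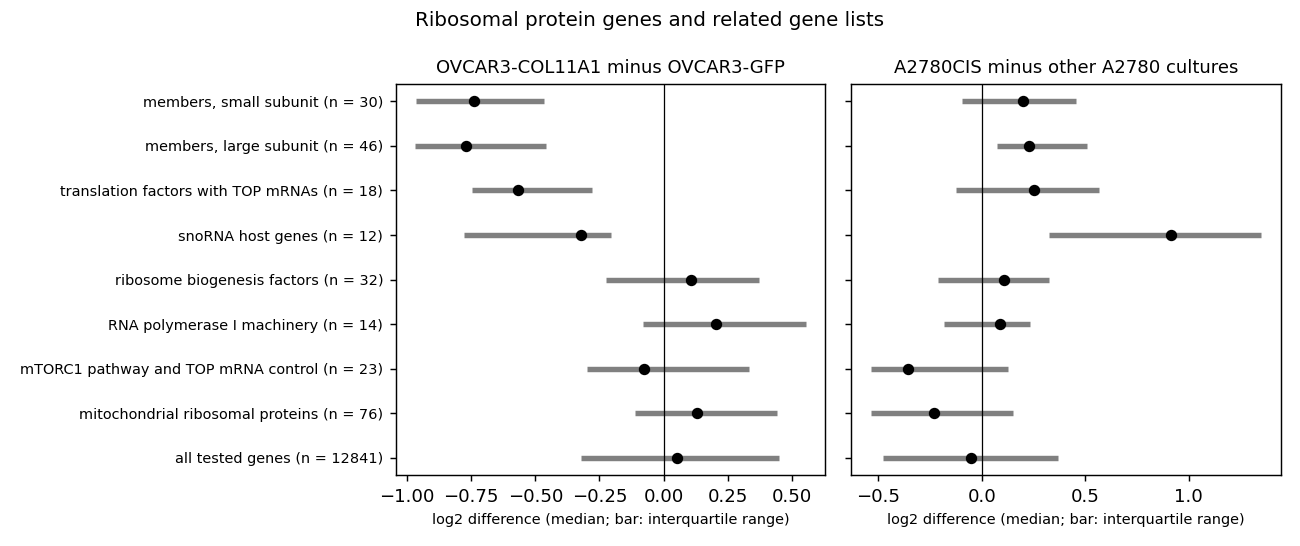
Median log2 difference (point) and interquartile range (bar) for members of each subunit, related gene lists and all tested genes, in OVCAR3-COL11A1 against OVCAR3-GFP (left, 1 library each) and in A2780CIS against the other A2780 cultures (right). On the left the subunits lie at -0.74 and -0.77 and mitochondrial ribosomal proteins at 0.13; on the right the host genes of small nucleolar RNAs stand highest at 0.91.

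In A2780 few members differed with the introduced COL11A1. A2780-COL11A1 against A2780 scrambled shRNA put 1 member past 1.5-fold, against 13.4% of all genes, 4.45% higher and 8.91% lower, with a median of 0.04 and 44 of 76 positive; the median was -0.03 after quantile normalization. That member was RPS21, a small subunit protein, at 1434 FPKM in the scrambled library and 2182 in A2780-COL11A1 (0.61). RPL26, at 1812 and 2455 FPKM (0.44), RPS15A, at 2098 and 2836 (0.43), and RPS27A, made as a fusion with ubiquitin, at 1135 and 1492 (0.39), came next. RPS9 at 1083 and 809 FPKM (-0.42) and RPL13 at 326 and 249.7 (-0.38) were the lowest, followed by RPS2 (-0.36) and RPS28 (-0.26). A2780-shCOL11A1 against the same control put 0 members past the ratio, against 2.11% of all genes, 0.74% higher and 1.37% lower, with a median of -0.12 and 68 of 76 negative; the median was 0 after quantile normalization. Its lowest members were RPL13A at -0.39, RPS28 at -0.30, RPS15 at -0.26 and RPL28 at -0.25, and its highest RPL22 and RPS15A at 0.09, RPS13 at 0.05 and RPS27A at 0.04. The A2780 pairs share the scrambled library, so they are not independent of each other.

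Between the lines the family was lower in OVCAR3. In limma, with the COL11A1 group as a term, 43 of 76 members passed, 41 lower and 2 higher in OVCAR3, against a background of 45.2% of genes, 25.6% lower and 19.6% higher. The share called is thus near the background, and the split by direction is not. The median was -0.97 over members and -0.15 over all genes, and it was negative under all 4 other scalings, from -0.99 to -0.66. Both OVCAR3 libraries lay below all 4 A2780 libraries for 51 members, 67.1%, against 34.5% of all genes, and above them for 5 members, 6.58%, against 26.5%. The count depends on single libraries. Without OVCAR3-COL11A1 9 members passed, 2 higher and 7 lower, 8 of them among the 43, which is 11.8% of members against 24.8% of all genes in that fit, and the median was -0.56; without OVCAR3-GFP the median was -1.36. Leaving out A2780 scrambled shRNA left 12 calls, 15.8% against 27% of all genes, and leaving out A2780-shCOL11A1 25, 32.9% against 29.6%. RPL13, RPS19, RPS23 and RPS26 passed in each of 16 alternatives.

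RPL13, a large subunit protein (chromosome 16, 89627065 to 89633237, GRCh37), had the lowest difference. It was at 326, 307, 319.6 and 249.7 FPKM in the A2780 libraries and 68.7 and 39.4 in OVCAR3. The groups did not overlap, the A2780 mean being 301 ± 34.9 FPKM (SD, n = 4), and the difference was -2.50 ± 0.22 (adjusted p = 0.000851). RPL13A was at 635, 483, 857 and 583 FPKM in the A2780 libraries and 221 and 79.4 in OVCAR3 and differed by -2.23 ± 0.45 (adjusted p = 0.0110). RPL36, also of the large subunit, was at -1.91 ± 0.29 (adjusted p = 0.00403). The highest OVCAR3 value of each of these lay below the lowest A2780 value.

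In the small subunit RPS28 was at -1.83 ± 0.31 (adjusted p = 0.00620). RPS18, which sits in the head at the interface of the particles, was at 4999.9, 4840.1, 6819 and 6418 FPKM in the A2780 libraries and 2319 and 1175 in OVCAR3 and differed by -1.79 ± 0.39 (adjusted p = 0.0149). RPS19, the gene most often mutated in Diamond-Blackfan anaemia, was at 1411, 1396, 1293 and 1385 FPKM in the A2780 libraries and 583 and 351 in OVCAR3 and differed by -1.60 ± 0.24 (adjusted p = 0.00439). Its A2780 values span 1293 to 1411 FPKM, all above the 583 of OVCAR3-GFP. RPL3, RPL17, RPL31 and RPL23 were also among the 10 lowest, between -1.77 and -1.63. Of the Diamond-Blackfan list 17 of 18 were negative, and 13 passed as lower and 0 as higher; of the stalk genes RPLP0, RPLP1 and RPLP2 passed as lower and RPL12 was at 0.11 ± 0.30 (adjusted p = 0.791). RPL11 was lower (-1.09 ± 0.24 (adjusted p = 0.0148)) and RPL5 was at -0.72 ± 0.30 (adjusted p = 0.0996).

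**Figure D4:**
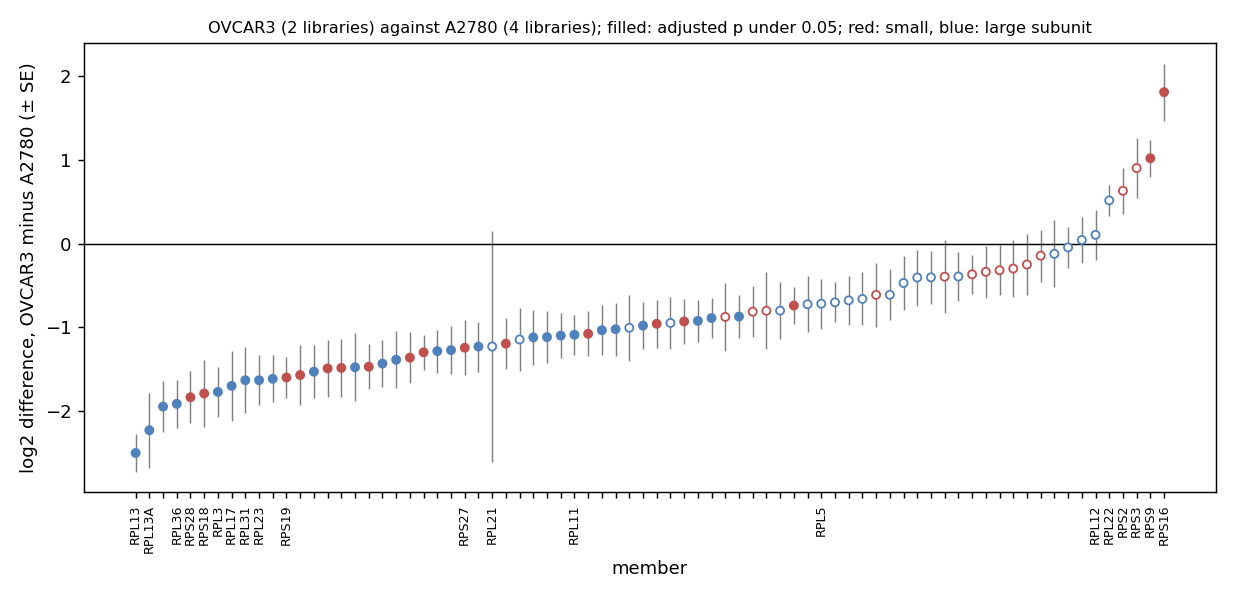
Fitted log2 difference (± SE) between OVCAR3 (2 libraries) and A2780 (4 libraries) for each member, ordered, in red for the small and blue for the large subunit; filled points have an adjusted p under 0.05 and some members are named on the axis. RPL13 stands lowest at -2.50, and RPS9 and RPS16 are the only filled points above 0, at 1.02 and 1.81.

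RPS16, a protein of the small subunit head (chromosome 19, 39923847 to 39926618, GRCh37), went against the family. It was at 1884, 1630.4, 1813 and 1959.7 FPKM in the A2780 libraries and 8956 and 4554 in OVCAR3. The lower OVCAR3 value was far above the highest A2780 value, and the difference was 1.81 ± 0.34 (adjusted p = 0.00861). RPS9 (chromosome 19, 54704726 to 54711515, GRCh37) was at 1083, 967, 866 and 809 FPKM in the A2780 libraries and 1889 and 1870.1 in OVCAR3, also with no overlap, and differed by 1.02 ± 0.22 (adjusted p = 0.0141). RPS3, RPS2 and RPL22 lay above all A2780 libraries in both OVCAR3 libraries without passing, at 0.90 ± 0.36 (adjusted p = 0.0856), 0.63 ± 0.28 (adjusted p = 0.110) and 0.52 ± 0.18 (adjusted p = 0.0617). RPS9 and RPS16 are 2 of the 12 members on chromosome 19, and RPL13A, RPL36, RPS19 and RPS28 on the same chromosome were lower.

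Genes beside RPS16 and RPS9 were higher in OVCAR3 as well; they were looked up after these members' values had been seen. Within 100 kb of RPS16, the elongation factor gene SUPT5H differed by 3.98 ± 0.28, the Mediator gene MED29 by 3.22 ± 0.27, PAF1 by 3.10 ± 0.27, the mitochondrial import gene TIMM50 by 2.90 ± 0.18 and SAMD4B by 2.63 ± 0.23. SUPT5H was at 27.3 to 52.8 FPKM in A2780 and at 625 and 633 in OVCAR3. Over 1 Mb on either side, 36 of 38 tested neighbours of RPS16 were positive, with a median of 1.98. Near RPS9, CNOT3 differed by 3.27 ± 0.27, MBOAT7 by 3.55 ± 0.25 and TFPT by 3.12 ± 0.18, and the 30 neighbours over 1 Mb had a median of 1.09. Near RPS3 the genes within 100 kb went both ways, with GDPD5 at 3.08, KLHL35 at 3.07 and ARRB1 at -0.88. For RPL13 the median of 35 neighbours was -0.81, and for RPS2 that of 60 neighbours was -0.63, opposite to RPS2 itself. The part of these regions in the members' values was not tested.

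**Figure D5:**
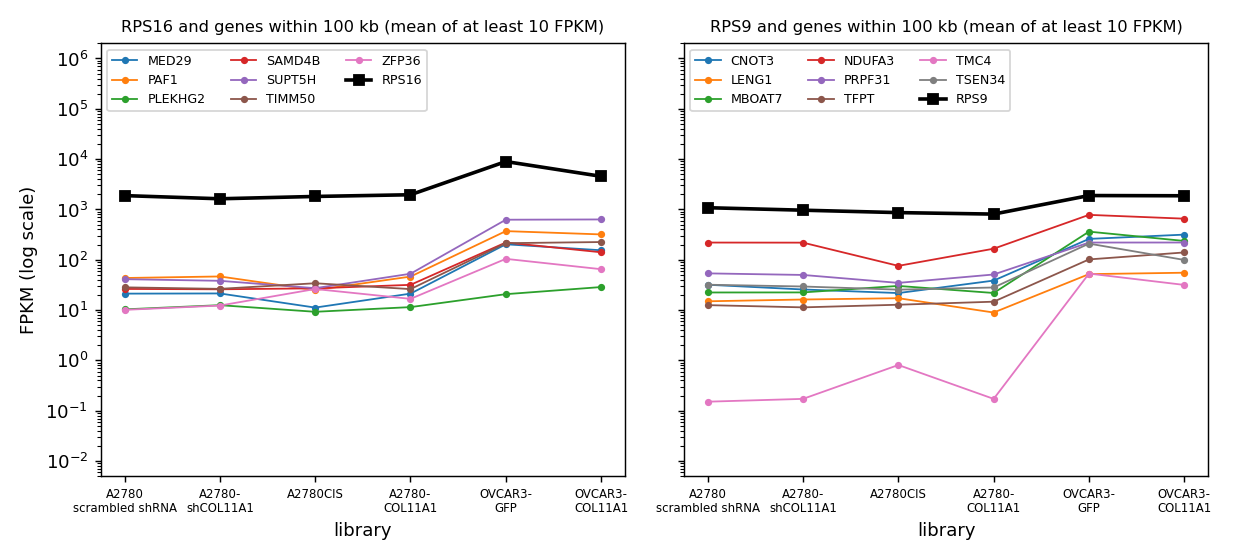
FPKM (log axis) in the 6 libraries of RPS16 (left) and RPS9 (right), in black, and of genes within 100 kb with a mean of at least 10 FPKM, in colour; lines join the values of a gene and imply no order of libraries. RPS16 is at 1630 to 1960 in A2780 and at 8956 and 4554 in OVCAR3, and SUPT5H at 27.3 to 52.8 in A2780 and at 625 and 633.

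A2780CIS was set against the 3 other A2780 cultures in a fit over all 6 libraries that takes the spread of this lone library to be that of the other classes. Only RPL21 passed in limma, with a difference of 4.98, but it entered the test only through its level in A2780CIS. Its call is therefore not read as a result. The background was 11.1% of genes, 5.69% higher and 5.43% lower. The median over members was 0.23, beside -0.05 over all genes, and 59 of 76 were positive. After quantile normalization it was 0.03. A2780CIS lay above the other A2780 libraries for 46 members, 60.5%, against 35.1% of all genes, and below them for 9, 11.8%, against 40.2%. Against the scrambled library alone 12 members were past 1.5-fold, 10 higher and 2 lower, led by RPL21, RPS3A, RPS20 and RPL9 above and by RPS12 and RPL5 below, beside 38.7% of all genes, 16.7% higher and 22% lower.

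RPS3A, a small subunit protein (chromosome 4, 152020725 to 152025804, GRCh37), was at 1750, 1658 and 1680 FPKM in the other A2780 cultures and at 3291 in A2780CIS. It differed by 0.96 ± 0.30 (adjusted p = 0.0984), and it passed after scaling to a common sum, after quantile normalization and without either OVCAR3 library. RPS20 was at 1760 FPKM against 906 to 1056 (0.84 ± 0.29 (adjusted p = 0.120)), and RPL9 at 2917 against 1682 to 1849 (0.74 ± 0.31 (adjusted p = 0.178)). All 8 exit tunnel genes were positive, with a median of 0.42.

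RPS12 moved the other way. This small subunit gene (chromosome 6, 133135708 to 133138703, GRCh37) was at 3670, 3608 and 4318 FPKM in the other A2780 cultures and at 1848 in A2780CIS, and differed by -1.06 ± 0.38 (adjusted p = 0.131); it passed after scaling to a common sum and after quantile normalization. RPL5 was at 1497, 1396 and 1623 FPKM against 905 in A2780CIS (-0.73 ± 0.29 (adjusted p = 0.170)), and passed after quantile normalization, while its partner RPL11 was at 1741 against 1608 to 1785 (0.02 ± 0.29 (adjusted p = 0.985)). SLC18B1, within 100 kb of RPS12, was at 13.2 FPKM in A2780CIS against 23.7 to 26.3. EVI5, within 100 kb of RPL5, differed by -0.84 ± 0.29. FAM69A differed by -0.82 ± 0.25, but its entry overlaps the locus of RPL5, so it is not a separate neighbour. RPS28 was the next lowest member, at -0.39 ± 0.47 (adjusted p = 0.660). Within 100 kb of RPS20, which was higher in A2780CIS, LYN differed by 0.78 and PLAG1 by -1.02. Over 1 Mb on either side, the 5 tested neighbours of RPS12 were all lower in A2780CIS, with a median of -0.87. Of 14 neighbours of RPL5, FAM69A among them, 12 were lower and 2 higher, with a median of -0.83. Of 6 neighbours of RPS20, 4 were higher and 2 lower, with a median of 0.22. The part of these regions in the members' values was not tested. The neighbours of RPS12, RPL5 and RPS20 too were looked up with the members' values known.

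Among the related lists the snoRNA host genes had the highest median in A2780CIS. Of 12, 10 were positive and 4 passed, all higher, with a median of 0.91: SNHG12 by 1.70 ± 0.28, SNHG8 by 1.65 ± 0.20, SNHG1 by 1.42 ± 0.23 and EPB41L4A-AS1 by 1.19 ± 0.21. GAS5 was at 688, 712 and 1196 FPKM in the other A2780 cultures and 1545 in A2780CIS, and did not pass. Of 18 TOP translation factors 1 rose and 1 fell. EIF3H was at 173 to 202 FPKM and 398 in A2780CIS (1.10 ± 0.22, adjusted p = 0.0259), and EIF4B at 230 to 260 and 120 in A2780CIS (-0.99 ± 0.24, adjusted p = 0.0452). The mitochondrial ribosomal proteins had a median of -0.23, with 28 of 76 positive and 1 that passed, as higher.

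Some members have a related gene for a similar protein. Of 9 entries listed as paralogs 6 were tested, and RPL10L, RPL3L and RPL13AP3, the last a pseudogene by its symbol, were under 1 FPKM in every library and below the filter. RPL22L1, which can stand in for RPL22 in mouse, was at 13.7, 10.1, 42.9 and 31.6 FPKM in the A2780 libraries and 11.7 and 7.52 in OVCAR3, so the A2780 libraries with high COL11A1 were above those with low; the group difference over both lines was 0.85 ± 0.47 (adjusted p = 0.731). RPS27L, a p53 target in human cells, was at 78.9, 87.3, 108 and 119 FPKM in A2780 and 17.2 and 20.0 in OVCAR3, and fell by 2.33 on the log2 scale between the lines (SE 0.17, adjusted p = 0.000484). RPS27 itself was at 6685, 6258, 6922 and 5851 FPKM in the A2780 libraries and 3554 and 2069 in OVCAR3 and differed by -1.24 ± 0.33 (adjusted p = 0.0262). In the OVCAR3 pair RPS27L differed by 0.21 and RPS27 by -0.78, and the 6 paralogs had a median of 0.04. CDKN1A, another p53 target, was at 43.2 to 91.8 FPKM in A2780 and under 10 in both OVCAR3 libraries.

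Across the lines the related lists below had medians from -1.24 to -0.05, beside -0.97 over members and -0.15 over all genes. Counts are of genes that passed. The 3 ribosomal protein genes under other symbols had a median of -1.24, with 2 lower and 0 higher. The list of MYC family and p53 genes had -1.03, with 6 of 11 tested lower and 0 higher. Host genes of small nucleolar RNAs had -0.93, with 4 of 12 lower and 0 higher. Translation factors with TOP messages had a median of -0.81 with 7 of 18 lower and 2 higher, ribosome biogenesis factors -0.81 with 18 of 32 lower and 3 higher, RNA polymerase I genes -0.83 with 8 of 14 lower and 0 higher, and mitochondrial ribosomal proteins -0.23 with 21 of 76 lower and 14 higher, 27.6% and 18.4%, near the background of all genes. MYC was at 126, 145, 170 and 90.8 FPKM in A2780 and 30.4 and 42.5 in OVCAR3 (-1.82 ± 0.31, adjusted p = 0.00587). The mTORC1 list had a median of -0.05, with 6 of 23 lower and 5 higher. EIF4EBP1, the translation repressor that mTORC1 phosphorylates, differed by -2.71 ± 0.19, DDIT4 by -3.15 ± 0.49, and SESN3, at under 0.05 FPKM in A2780, was at 10.2 and 7.60 in OVCAR3. No test set these lists against the members.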

How the data were processed

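Poly-A RNA of 6 cultures was sequenced, 1 library each. Values are FPKM as deposited by the authors, per the file headers, and the unit is recorded as other because in 1.09% of cells a word stands for the number. GRCh38, STAR 2.5.0 and RSEM 1.2.25 appear in the submitters' processing notes, while the deposited loci are those of GRCh37 in a Cufflinks layout, so the program behind the values is not given in the sources used here. Table starts count from 0 and are printed counted from 1. Read counts were not used here and absolute depth is unknown. Relative depth is the commonest ratio between low values of the same genes.

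Of 25275 entries, 1304 off the main chromosomes, 28 with dates as names, 240 without a number in every library and names with several loci (306) were left out. Genes averaging 1 FPKM or more were tested on log2(FPKM + 1) with limma 3.58.1 in R 4.3.3: variances moderated with an intensity trend, two-sided, Benjamini-Hochberg over 12841 genes, threshold 0.05. All 76 members were tested. Fold changes on this scale are understated for low genes. Group and line shared a model over all 6 libraries, A2780CIS was a class of its own in another model, and the interaction had its own. The test was checked on simulated data with noise independent between genes and libraries. That is no check of constructs taken as replicates, of the lone A2780CIS library or of unequal depth. Pairs of single libraries were counted at 1.5-fold. Python 3.11.15, pandas 2.3.3 and matplotlib 3.10.9 did the rest.

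Members and lists were chosen with earlier results of these data known. Members were named by rule: in each tested comparison up to 10 per direction past the threshold, filled to 4 by size; in each pair the 4 highest and 4 lowest; the 5 highest and 5 lowest means; stalk and 5S genes; paralogs; and up to 4 genes of each other list. Some genes that this rule names are not reported here. Members also named for their place in the ribosome, and genes near RPS16, RPS9, RPS3, RPS12, RPL5 and RPS20, were chosen after the members' values were seen. Sequences are from RefSeq, GRCh38.p14; no coordinates were converted. Alternatives were other pseudocounts, filters, scalings, variance models and leaving out each library.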

Additional observations from a re-analysis of the deposited data

How the results depend on the processing

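The median of the members between COL11A1-high and COL11A1-low libraries kept its sign under other pseudocounts, filters, scalings and variance models; leaving out 1 library at a time gave -0.25 to 0.19, the latter being the value without either OVCAR3 library (that is, without replicate 3 of either group). Between the lines, the 43 calls became 4 with no filter on low values, where 23.6% of all genes passed, and 22 (3 higher, 19 lower) after scaling to the same median, where 44.7% did; leaving out 1 library gave 9 to 44 calls and medians from -1.36 to -0.56. In A2780CIS the single call, RPL21, entered the test only through that library. The calls became 3 after scaling to a common sum and 4 after quantile normalization. Of the pairs, A2780-COL11A1 went from 1 member past 1.5-fold to 0 with a common sum, with quantile normalization and at 2-fold, A2780CIS from 12 to 6 with quantile normalization and 1 at 2-fold, and OVCAR3-COL11A1 from 53 to 32, 20 and 13 under a common sum, quantile normalization and 2-fold. The causes were not tested. Single named members under the alternatives kept their side of the threshold in 1752 values, lost it in 100 and gained it in 34, with 0 changes of sign past it. No paired test was run, since each culture was sequenced once and the labels carry no replicate numbers. The line entered the group comparison as a term. The replicate numbers used here follow accession order and only name libraries. With 1 library per culture, no difference has a check by a repeat, and reads shared with pseudogenes limit the level of any single member.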
